A study of Homo sapiens with 6 samples.

Results

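Metallothioneins are small cysteine-rich proteins that bind zinc and copper, and SLC30A1 (ZnT1) is the plasma membrane carrier that moves zinc out of the cell. The transcription factor MTF1 senses free zinc and activates both through short promoter sequences, the metal response elements. The 8 genes described here are 6 metallothioneins (MT2A, MT1E, MT1X, MT1G, MT1M and MT1F), MTF1 and SLC30A1. They were chosen by symbol, with Ensembl identifiers matched without their version, from 60668 genes in the table, and all 8 were found. The human pancreatic ductal adenocarcinoma (PDAC) cell line MiaPaCa-2 was kept for 48 h in medium with 2.5 mM glucose (low glucose, 3 libraries) or in control medium without that treatment, given as 25 mM glucose (3 libraries). The treatment text of the labels carries 2.5 mM for the control samples too, whereas their titles name them control. No genotype or other agent separates the groups, and each library is a bulk culture of 1 cell line, described as an independent biological replicate. The study asked how PDAC cells adapt when glucose is withdrawn.

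Values below are normalized counts, which are reads on a gene divided by 1 size factor per library. Depth was 9741183, 10126218 and 10190154 reads on genes in control and 10595408, 10841656 and 13733477 in low glucose, and values are always given in that order. Because a normalized count is relative to the other RNA of a culture, more transcript per cell and less of everything else cannot be told apart. The control library of 10126218 reads stood apart: its chi-square per gene against the other control libraries was 9.20 and 20.2, against 4.84 between those and 1.95 to 3.09 among the low-glucose libraries. Values named below that moved most with it are given with and without it. Genes of the mitochondrial genome took 2.47% to 3.82% of the reads of a control library, highest in that one, and 4.65% to 5.12% of those of a low-glucose library. MiaPaCa-2 keratins KRT8 and KRT18 and the intermediate filament VIM were abundant, with a summed value of 113227 to 138555. In low glucose KRT8 and KRT18 fell by 1.01 and 0.74 on the log2 scale, and VIM rose by 0.42 (limma adjusted p = 3.26e-06, 4.29e-05 and 0.00819). CDKN2A, which this line has lost, had no read in any library, which allows up to 3 reads in each. The acinar and islet markers (0 of 6 genes with a read) and the defining leukocyte markers PTPRC and CD3E were at 0, and the whole leukocyte list summed to at most 21.3. Of 5 fibroblast markers, DCN was at 0 and the sum was nearly all COL1A2 (2651 to 2882 over the control libraries, 1922 to 1952 over the low-glucose libraries). The sum of 3 endothelial markers, nearly all CDH5, was 157 to 192 over the control libraries and 9.88 to 12.1 over the low-glucose libraries, and its part in the results was not tested. TXNIP, which glucose induces, fell by 1.12 on the log2 scale, and HSPA5, the chaperone BiP, rose by 1.66 (limma adjusted p = 2.38e-07 and 1.45e-08).

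Promoter sequences were found in the RefSeq table for 4 of the 8 genes, MT2A, MT1X, SLC30A1 and MTF1. They are shown because the core of the metal response element, TGCACNC or TGCGCNC, can be read in them. The 250 bases before the transcription start are printed 5′ to 3′ on the strand of the gene (GRCh38.p14), and capitals mark the cores on either strand, so that a core on the opposite strand appears as its reverse complement, GNGTGCA or GNGCGCA.
MT2A promoter, chr16:56608334-56608583, plus strand: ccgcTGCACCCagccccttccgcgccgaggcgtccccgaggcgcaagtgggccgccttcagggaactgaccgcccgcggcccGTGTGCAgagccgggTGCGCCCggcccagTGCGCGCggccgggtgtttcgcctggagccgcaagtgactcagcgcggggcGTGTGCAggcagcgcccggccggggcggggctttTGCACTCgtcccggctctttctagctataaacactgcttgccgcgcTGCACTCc
MT1X promoter, chr16:56682220-56682469, plus strand: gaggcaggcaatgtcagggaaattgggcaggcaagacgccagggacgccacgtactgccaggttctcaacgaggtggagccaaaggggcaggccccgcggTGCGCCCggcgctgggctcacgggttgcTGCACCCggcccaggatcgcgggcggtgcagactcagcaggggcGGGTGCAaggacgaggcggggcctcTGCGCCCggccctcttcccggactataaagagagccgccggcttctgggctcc
SLC30A1 promoter, chr1:211579162-211579411, minus strand: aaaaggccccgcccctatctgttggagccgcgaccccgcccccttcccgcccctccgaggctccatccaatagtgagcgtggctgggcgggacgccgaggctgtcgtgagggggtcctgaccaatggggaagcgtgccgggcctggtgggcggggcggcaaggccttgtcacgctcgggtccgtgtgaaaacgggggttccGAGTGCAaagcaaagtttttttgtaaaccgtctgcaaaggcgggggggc

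The MT2A promoter held 7 cores, 5 of them on its own strand, from 246 to 2 bases before the start. As many were found in 0.0330% of the 27305 promoters of the same length. MT1X held 4, between 150 and 47 bases before the start, as did 0.366% of all promoters or more. In SLC30A1 there was 1 core, on the opposite strand at 49 to 43 bases, where 24.7% of all promoters held at least 1. The MTF1 promoter held 0 cores in this window. None of the matches in these promoters overlapped another, and a match is a match of letters, not a site that MTF1 was shown to bind.

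**Figure D1:**
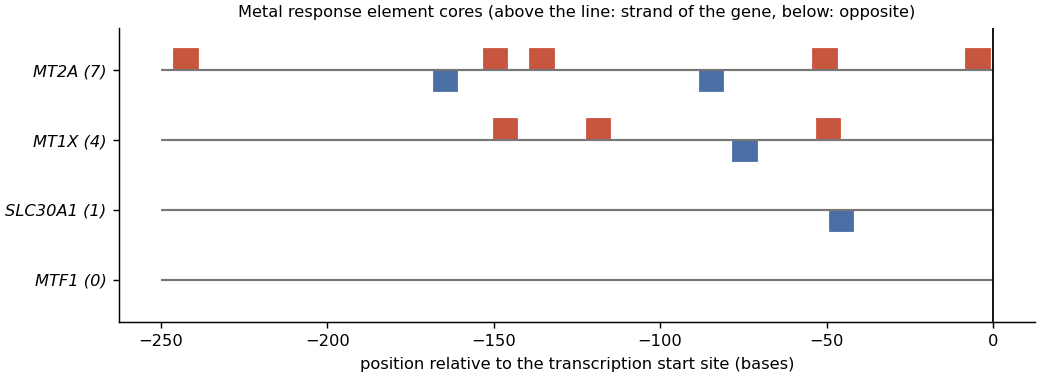
Matches to the metal response element core in the 250 bases before the transcription start (x axis, bases from the start) of MT2A, MT1X, SLC30A1 and MTF1, with the number of matches in brackets. Red boxes above a line are on the strand of the gene and blue boxes below it on the opposite strand, and MT2A carries 7 against 4 in MT1X.

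In low glucose, 3 of the 8 genes were higher past the threshold (limma adjusted p under 0.05) and 0 were lower, all 3 of them metallothioneins of low or moderate abundance. Among all 21101 genes tested, 14.7% were higher, 16.2% lower and 30.9% changed in either direction, and this split of 3111 higher and 3417 lower genes was 3935 and 2647 with total-read scaling. At an unadjusted p under 0.05 the 8 genes still held 0 lower, as they did with edgeR and DESeq2. All 8 passed the filter on low values, a mean of at least 1. The median log2 difference of the 8 was 0.39, against 0.05 over all genes tested. It lies between the differences of MT1E (0.35) and MT2A (0.43), which were 0.14 and 0.10 without the control library of 10126218 reads. The same 3 genes, MT1M, MT1G and MT1X, were those with no overlap between the conditions, where 22.1% of all tested genes lay wholly higher and 21.8% wholly lower.

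**Figure D2:**
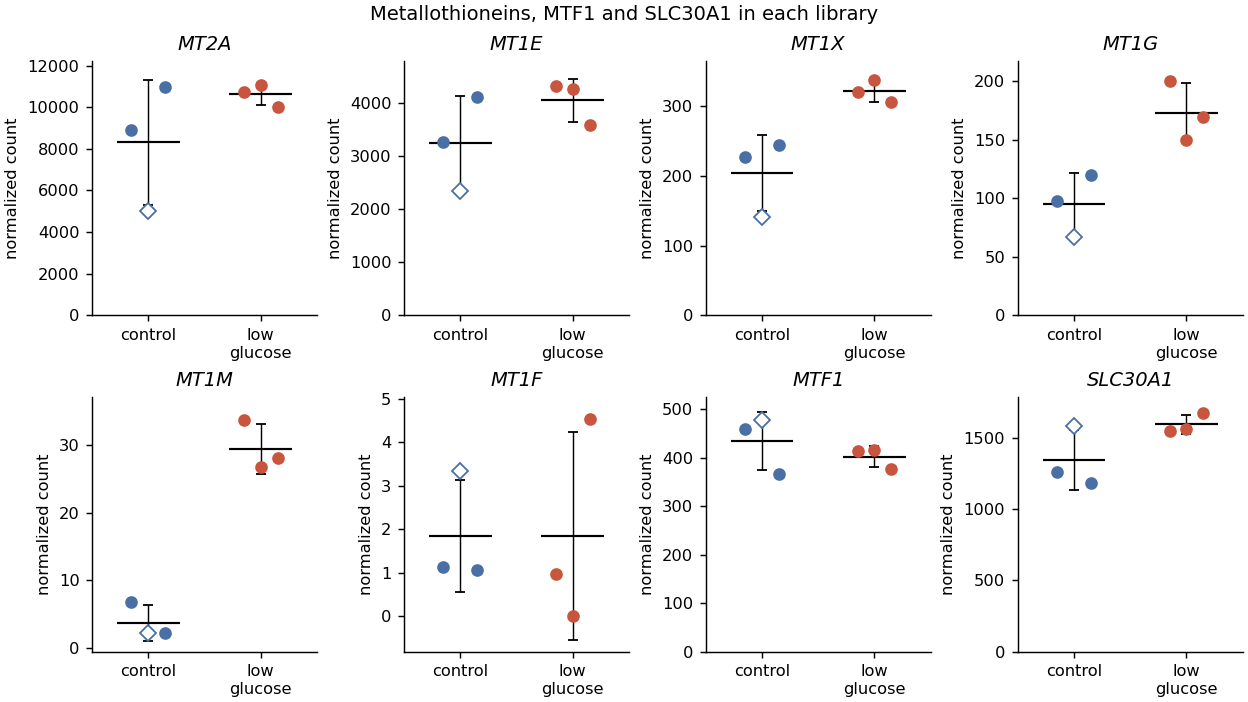
Normalized counts (y axis, linear) of the 8 genes in each control (blue) and low-glucose (red) library, with the mean (bar) and SD (whiskers, n = 3), and with the control library of 10126218 reads as an open diamond. MT1X, MT1G and MT1M lie wholly higher in low glucose, and the diamond is the lowest value of all 6 libraries for MT2A, MT1E, MT1X and MT1G.

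MT1M rose most. This metallothionein (ENSG00000205364.4, chromosome 16 of hg38, 56632659 to 56633981, plus strand) had normalized counts of 6.73, 2.23 and 2.14 in control and 26.7, 33.7 and 28.04 in low glucose. It was close to absent from every control library and present in every low-glucose library. The mean went from 3.70 ± 2.62 (SD, n = 3) to 29.5 ± 3.71 (SD, n = 3). The log2 difference on the scale of log2(value + 1) was 2.82 (standard error 0.425, limma adjusted p = 0.000169), and 46 of the tested genes (0.218%) had a larger one. Behind these values were 10 reads in control and 99 in low glucose, a ratio of normalized counts of 7.998 with an exact 95% interval of 4.17 to 17.2 for counting error alone. The rise passed in each of the 15 alternative fits, with adjusted p-values of 1.18e-05 to 0.0118.

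MT1G (ENSG00000125144.13, chromosome 16, 56666730 to 56668065, minus strand) had 97.5, 66.9 and 119.8 in control and 150.2, 200.1 and 169.0 in low glucose. The lowest low-glucose value was above the highest control value. Its mean rose from 94.7 ± 26.6 (SD, n = 3) to 173 ± 25.2 (SD, n = 3), a log2 difference of 0.89 (standard error 0.191, limma adjusted p = 0.00254). Without the control library of 10126218 reads the difference was 0.66. The call was lost when the variance model had no trend with mean expression (adjusted p = 0.0584, range 0.000118 to 0.0584 over all alternatives).

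MT1X (ENSG00000187193.9, chromosome 16, 56682470 to 56684196, plus strand) had 226, 142 and 244 in control and 337, 320 and 306 in low glucose. The low-glucose libraries lay close together and wholly above control. The mean went from 204 ± 54.8 (SD, n = 3) to 321 ± 15.4 (SD, n = 3), with a log2 difference of 0.69 (standard error 0.163, limma adjusted p = 0.00504). Without the control library of 10126218 reads it was 0.45, which still passed (limma adjusted p = 0.00103), in a fit where 16.6% of 21141 genes were higher and 34.3% changed in either direction. It did not pass without a variance trend (adjusted p = 0.0893, range 0.000323 to 0.0893).

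The most abundant metallothionein, MT2A (ENSG00000125148.7, chromosome 16, 56608584 to 56609497, plus strand), did not pass. Its normalized counts were 8919, 5032 and 10963 in control and 11084, 10745 and 10030 in low glucose. The highest control library lay above 2 of the 3 low-glucose libraries, and the control library of 10126218 reads lay far below the other 5. This gave a mean of 8305 ± 3013 (SD, n = 3) in control and 10619 ± 538 (SD, n = 3) in low glucose, a log2 difference of 0.43 with a 95% interval of 0.01 to 0.84 (limma adjusted p = 0.111). Without the control library of 10126218 reads the difference was 0.10 (adjusted p = 0.257), and without that of 10190154 reads it was 0.66 and passed (adjusted p = 0.00207).

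MT1E (ENSG00000169715.15, chromosome 16, 56625475 to 56627112, plus strand), second in abundance, had 3264, 2346 and 4107 in control and 4250, 4307 and 3575 in low glucose. The highest control library lay above the lowest low-glucose library. The means were 3239 ± 881 (SD, n = 3) and 4044 ± 407 (SD, n = 3), with a log2 difference of 0.35 (95% interval 0.03 to 0.67, limma adjusted p = 0.0881). It was 0.14 without the control library of 10126218 reads and was 0.54 without that of 10190154 reads, where it passed (adjusted p = 0.00103).

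MT1F (ENSG00000198417.7, chromosome 16, 56657731 to 56660698, plus strand) was at the limit of detection. It had 1, 3 and 1 reads in control and 0, 1 and 6 in low glucose, and no difference was detectable at this depth. The ratio over all its reads was 1.13 with an exact 95% counting interval of 0.309 to 4.52, and the fitted log2 difference was -0.27 (limma adjusted p = 0.818), which changed sign when the control library of 10126218 reads (0.08) or, in low glucose, that of 10595408 reads (0.30) was left out.

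MTF1 (ENSG00000188786.10, chromosome 1, 37809574 to 37859592, minus strand), the zinc-sensing activator of these genes, had 459, 478 and 367 in control and 416, 415 and 377 in low glucose. All low-glucose values lay within the range of the control values. The log2 difference was -0.10 with a 95% interval of -0.33 to 0.13 (limma adjusted p = 0.521), and its messenger RNA did not pass in any of the 15 alternatives (adjusted p 0.0816 to 0.902).

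The zinc exporter SLC30A1 (ENSG00000170385.10, chromosome 1, 211571568 to 211579161, minus strand) had 1260, 1580 and 1181 in control and 1558, 1546 and 1671 in low glucose. The control library of 10126218 reads sat among the low-glucose values, at 1580, and the other control libraries lay below them all. The means were 1341 ± 211 (SD, n = 3) and 1591 ± 68.9 (SD, n = 3), with a log2 difference of 0.26 (standard error 0.0991, limma adjusted p = 0.0618). Without that control library the difference was 0.38 and passed (adjusted p = 3.75e-05). It also passed with total-read scaling (0.34), TMM scaling (0.27), quantile normalization (0.46) and edgeR (0.27), in a range of adjusted p from 3.75e-05 to 0.236 over all alternatives.

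Leaving out the control library of 10126218 reads made the differences of MT2A, MT1E, MT1X and MT1G smaller and that of SLC30A1 larger. This library held the lowest value of all 6 libraries for MT2A, MT1E, MT1X and MT1G, as it did for 22.1% of all tested genes. It held the highest control value for MTF1, SLC30A1 and MT1F (3 reads), as it did for 37.8%. What set this library apart was not tested.

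**Figure D3:**
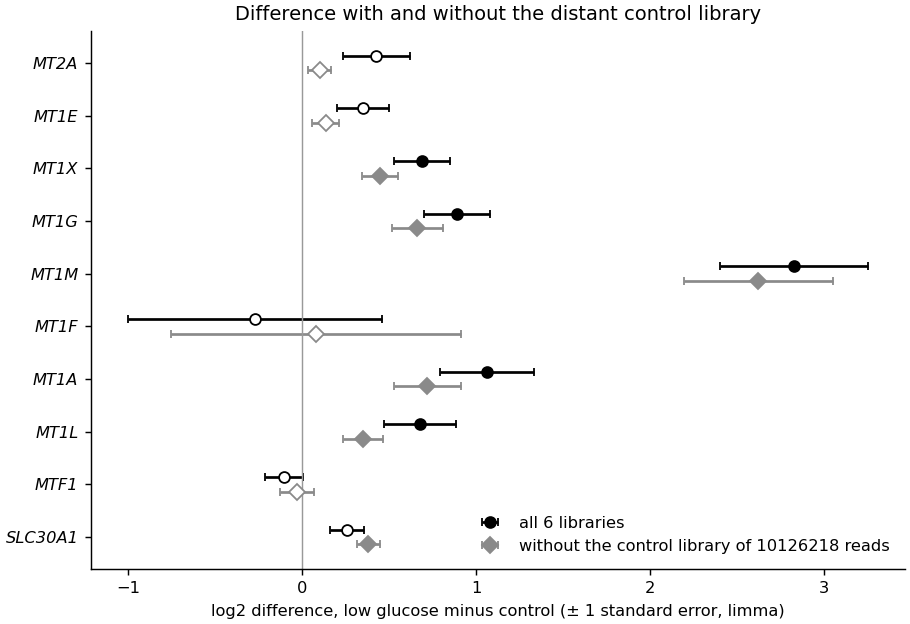
Log2 difference between low glucose and control (x axis, ± 1 standard error, limma) for the 8 genes and 2 further metallothionein genes, with all 6 libraries (black circles) and without the control library of 10126218 reads (grey diamonds). Filled symbols passed an adjusted p of 0.05: MT1X, MT1G, MT1M, MT1A and MT1L in both fits, and SLC30A1 without that library.

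Levels of different genes were compared per length, as length-scaled transcript abundance (TPM, which sums to the same total in each library) from the recovered reads. In control, MT2A had a mean of 2740 TPM, rank 35 among all genes, followed within the 8 genes by MT1E (928), SLC30A1 (68.6), MT1G (38.0), MT1X (35.6), MTF1 (16.4), MT1M (2.20) and MT1F (0.300). Neighbours in this order did not overlap between their 3 libraries, with the exception of MT1G (26.7 to 47.6 TPM) and MT1X (24.5 to 42.1 TPM). In low glucose the order was MT2A (3354 TPM), MT1E (1110), SLC30A1 (78.0), MT1G (66.6), MT1X (53.7), MT1M (16.7), MTF1 (14.6) and MT1F (0.289). MT1M thus moved from below to beside MTF1, with TPM ranges of 14.9 to 19.1 and 13.8 to 15.04 that overlapped, and MT1G and SLC30A1 overlapped as well. With the length of the longest transcript in place of all exons, MT1G (61.1 TPM) and SLC30A1 (59.9 TPM) changed places in low glucose.

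The 6 metallothioneins lie within 1 cluster on chromosome 16 and resemble each other in sequence, so reads can be assigned to the wrong copy. In the longest annotated transcript, 14.6% of the 50-base windows of MT1M, 14.3% of MT1G, 14.7% of MT1X, 10.3% of MT1E and 5.04% of MT2A also occurred in a transcript of another gene. For windows of 150 bases, the read length, the share was 0 for MT1M, MT1G, MT1E, MT1F and MT2A and 4.75% for MT1X, whose windows were shared with ENSG00000259827. That lncRNA overlaps 321 exon bases of MT1X on the same strand and had 0 reads. The study lists RSEM, which divides reads that match several genes among them by a model, but does not say that it made these counts. The values of single metallothioneins are uncertain to that extent.

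Of the 21 annotated metallothionein genes and pseudogenes, 13 had a read. The sum over all 21 does not depend on how counted reads were divided among them. Reads shared with genes outside the 21 can still change it, as 100% of the 150-base windows of MT1L also occur in ENSG00000291105. The sum was 12762, 7734 and 15774 normalized counts in control and 16270, 15990 and 14496 in low glucose. One control library lay within the low-glucose range and the other two lay below it. The mean was 12090 ± 4062 (SD, n = 3) in control and 15585 ± 954 (SD, n = 3) in low glucose, a ratio of 1.29 that was 1.09 without the control library of 10126218 reads and 1.52 without that of 10190154 reads. MT2A and MT1E together made up 93.9% to 95.5% of these reads in every library. The family took 0.0685% to 0.145% of all reads on genes in the control libraries, and 0.139% to 0.155% in those of low glucose.

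Within the family, the shares of 4 minor isoforms lay wholly higher in low glucose, but none of these differences could pass the test. The 6 isoforms with at least 10 reads in every library were compared with exact two-sided permutation tests, which cannot give a p below 0.1 with 3 libraries against 3. MT2A made up 69.9%, 65.1% and 69.5% of the metallothionein reads in control and 68.1%, 67.2% and 69.2% in low glucose (exact p = 1, adjusted p = 1). MT1E made up 25.6%, 30.3% and 26.04% in control and 26.1%, 26.9% and 24.7% in low glucose (exact p = 0.6, adjusted p = 0.72). The shares of these major isoforms overlapped between the conditions.

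For MT1X the share was 1.77%, 1.83% and 1.55% in control and 2.07%, 2.0033% and 2.11% in low glucose, and for MT1G it was 0.764%, 0.865% and 0.7597% in control and 0.923%, 1.25% and 1.17% in low glucose. Neither isoform overlapped between the conditions. MT1A and MT1L did not overlap either, with mean shares of 0.489% and 1.46% in control and 0.764% and 1.74% in low glucose. Each of these 4 reached the smallest possible exact permutation p, 0.1, or 0.15 after adjustment over the 6 isoforms, and so could not pass a threshold of 0.05. Over all libraries, MT1M made up 0.0302% of the family's reads in control and 0.190% in low glucose.

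**Figure D4:**
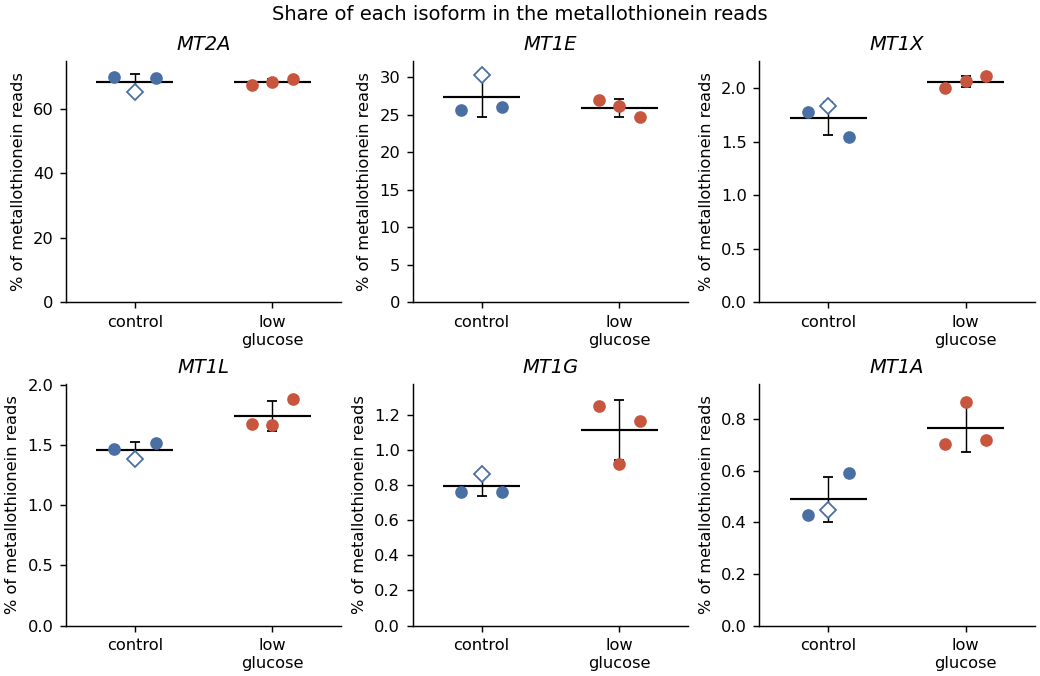
Percent of all metallothionein reads (y axis, from 0) that each of 6 isoforms took in each control (blue) and low-glucose (red) library, with the mean and SD (n = 3) and the control library of 10126218 reads as an open diamond. MT2A and MT1E overlap between the conditions, and MT1X, MT1L, MT1G and MT1A lie wholly higher in low glucose.

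Of 15 further metallothionein genes and pseudogenes, 7 had a read and 3 passed the filter. Of these 3, 2 were higher past the threshold, where 14.7% of all genes tested were higher. MT1A (chromosome 16, 56638666 to 56640087) had 54.9, 34.6 and 93.1 in control and 141, 113 and 105 in low glucose, a log2 difference of 1.06 (standard error 0.271, limma adjusted p = 0.00802). This call was lost without the low-glucose library of 10595408 reads (limma adjusted p = 0.0584) and without a variance trend (limma adjusted p = 0.105). The difference was 0.72 without the control library of 10126218 reads. The pseudogene MT1L (chromosome 16, 56617563 to 56618680) had 187, 107 and 240 in control and 272, 267 and 274 in low glucose, a difference of 0.68 (standard error 0.208, limma adjusted p = 0.0223). The call of MT1L was lost without any 1 of the low-glucose libraries (limma adjusted p 0.0799 to 0.0898) and without a variance trend (limma adjusted p = 0.173). Its difference was 0.35 without the control library of 10126218 reads, and 100% of its 150-base windows also occur in ENSG00000291105. MT2P1 had at most 7 reads in a library and did not pass (limma adjusted p = 0.133). MT1H, MT1P1, MT1P3 and MT1XP1 had at most 2 reads in any library, and MT3, MT4 and MT1B, among others, had 0.

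In the fit to all libraries, importers were the only zinc carriers that passed, in both directions. SLC30A1 did not pass in that fit (limma adjusted p = 0.0618). None of the 6 other tested exporters of the SLC30 family passed, by limma, edgeR or DESeq2 (0 at an unadjusted p under 0.05 in limma). Their median log2 difference was -0.12. Without the control library of 10190154 reads 1 of them was lower. Of the 12 tested members of the SLC39 family, which bring zinc into the cytosol, 3 rose and 4 fell, with a median of -0.17. Among all genes tested, 14.7% were higher and 16.2% lower. Without the control library of 10126218 reads 3 rose and 7 fell, and 3 rose and 2 fell with total-read scaling or quantile normalization. SLC39A14, which also carries iron and manganese, had 2879, 3228 and 2866 in control and 5027, 5476 and 5029 in low glucose (log2 difference 0.79, limma adjusted p = 4.38e-06). SLC39A13, a carrier of the secretory pathway, rose by 0.98 (limma adjusted p = 2.79e-05), and SLC39A4, the importer known from intestinal zinc uptake, by 0.60 (limma adjusted p = 0.00626). SLC39A8 fell by 1.17 on the log2 scale, from 335, 294 and 316 in control to 125, 124 and 174 in low glucose (limma adjusted p = 1.84e-05). Of the 12 tested SLC39 genes, 3 lay wholly higher in low glucose and 4 wholly lower, against 22.1% and 21.8% of all tested genes. The 4 carriers named here, picked among those past the threshold, were among them.

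Among 7 other genes known as targets of MTF1, mostly from work in mice, 4 rose and 1 fell, with a median log2 difference of 0.36. Of all genes tested, 14.7% were higher, 16.2% lower and 30.9% changed in either direction, with a median of 0.05. In low glucose 3 of the 7 lay wholly higher and 1 wholly lower, against 22.1% and 21.8% of all tested genes. Whether MTF1 took part was not tested. NDRG1, which many stresses induce, had 126, 149 and 118 in control and 386, 414 and 386 in low glucose (log2 difference 1.59, limma adjusted p = 2.96e-07). GCLC, the catalytic subunit of the first enzyme of glutathione synthesis, rose by 0.82 (limma adjusted p = 1.62e-05) and CSRP1 by 0.36 (limma adjusted p = 0.00201). The selenoprotein gene SELENOH rose by 0.72 (limma adjusted p = 0.00869), with conditions that overlapped (285, 198 and 398.01 in control, 521, 491 and 397.8 in low glucose). Its fold was 1.599, and 1.38 without the control library of 10126218 reads, where it was lowest. SLC39A10, a zinc importer that MTF1 is known to repress, fell by 0.28 on the log2 scale (limma adjusted p = 0.0172) in the fit to all libraries. It did not pass with total-read scaling, quantile normalization or no variance trend, nor when the library of 9741183 reads (control), 10841656 reads or 10595408 reads (both low glucose) was left out. Of these 7 genes, 3 passed when the low-glucose library of 10841656 reads or that of 10595408 reads was left out.

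Metallothioneins also respond to copper, to glucocorticoids and to heavy metals or electrophiles. Lists of genes tied to these were mixed in direction, where 14.7% of all genes tested were higher, 16.2% lower and 30.9% changed in either direction. The copper list holds genes that handle copper, not genes chosen as induced by it. Whether any of these inducers took part was not tested. Of 11 copper handling genes, 2 rose and 1 fell, among them CCS, the copper chaperone of SOD1 (0.74), SCO1, an assembly factor of cytochrome c oxidase (-0.55), and the copper importer SLC31A1 (0.26). Without the control library of 10126218 reads 2 copper genes rose and 3 fell. Of 7 tested glucocorticoid-linked genes, 2 rose (TSC22D3 by 2.696, PER1 by 1.67) and 2 fell (FKBP5 by 0.99 and NR3C1, the receptor itself, by 0.34). Of 10 genes of heavy metal and electrophile stress, 3 rose and 3 fell. Heme oxygenase HMOX1 rose by 1.35 and the cystine carrier SLC7A11 by 1.31, whereas the inducible heat shock genes HSPA1A and HSPA1B fell by 1.45 and 1.22 on the log2 scale. Limma adjusted p-values of the genes named in these 3 lists were 2.21e-07 to 0.0274.

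**Figure D5:**
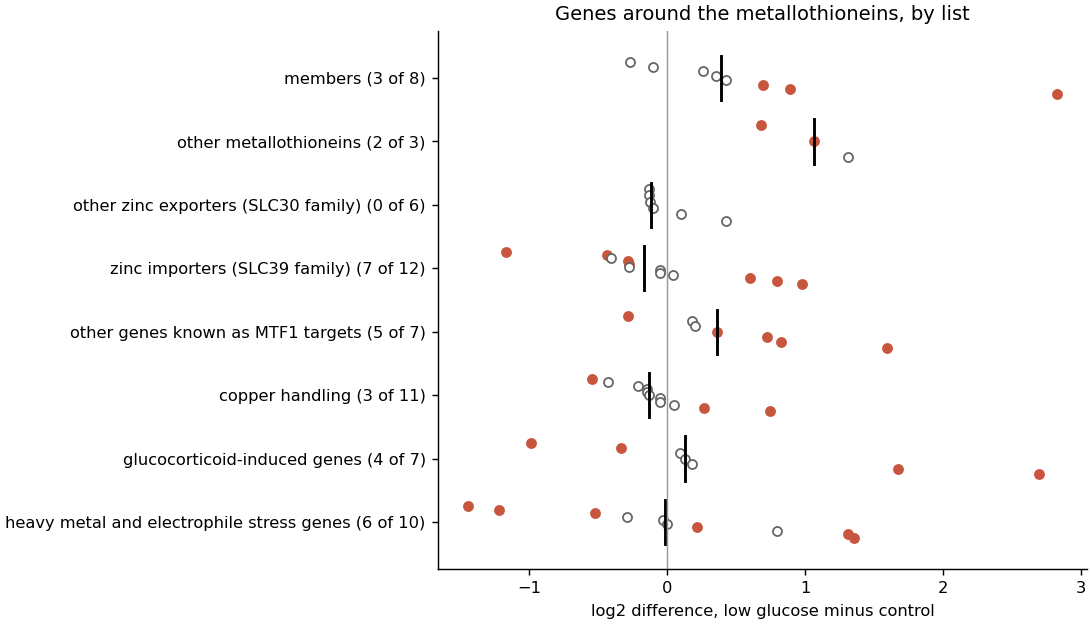
Log2 difference between low glucose and control (x axis) for each tested gene of the 8 lists (rows), filled red where it passed an adjusted p of 0.05, with the median of each list as a black line and the number past the threshold of those tested in brackets. The metallothionein lists hold red points on the right side alone, and the carrier and stress lists hold them on both sides, except the SLC30 list, which holds 0.

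The genes outside the family whose normalized counts followed the summed metallothioneins most closely were RPL9, TRIP4, PDLIM1, VAMP1 and ATP5MC1. Their Pearson correlation over the 6 libraries, on log2(value + 1), was 0.996 to 0.998 among 13763 genes compared, of which 615 reached at least 0.9. The points share their libraries and their scaling, and all 5 genes had their lowest value in the control library of 10126218 reads.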

How the data were processed

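Strand-specific libraries of total RNA from MiaPaCa-2 cells were sequenced. According to the methods and labels, the authors trimmed reads with Trim Galore, mapped them to hg38 with STAR 2.7.0e and used DESeq2. RSEM is in their software list, but which tool made the deposited counts, its strand and multi-mapping settings and the annotation are not given in the sources used here. The authors deposited a normalized signal: gene counts divided by a library size factor. Each value, 100% in all 6 columns, came out as a whole number of reads (tolerance 0.02), and reads were recovered in this way.

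For low glucose, the labels name the columns of replicates 1 and 2. The remaining 4 columns were assigned to a condition by the runs of their names, without a replicate number. Separate cultures are stated only as independent biological replicates.

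Genes whose mean reached 1 were compared on log2(value + 1), without further scaling, by limma 3.58.1 in R 4.3.3 (eBayes with a variance trend, Benjamini-Hochberg adjustment over all genes tested, two-sided, threshold 0.05). The alternatives were total-read, TMM and quantile scaling, a pseudocount of 0.1, no filter, a mean of at least 5, no variance trend, edgeR 4.0.16 (quasi-likelihood test) and DESeq2 1.42.0 on the recovered reads, and each library left out in turn. The limma, edgeR and DESeq2 tests were first run on simulated data. Isoform shares were tested with scipy 1.17.1. TPM used exon lengths of Gencode v44, which matched 99.4% of the identifiers.

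The 8 genes and the gene lists were chosen with earlier results of these data known. Named were the 8 genes, the other metallothioneins with a read, up to 4 genes per list (the largest differences among those past the threshold and at a mean of 10 or more), and the 5 genes most like the metallothionein sum among those with a mean of at least 20. SLC39A10 was named in addition, after its value was seen.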

Additional observations from a re-analysis of the deposited data

How the results depend on the processing

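No paired analysis was possible because replicate numbers are known for only 2 of the 6 columns. With 3 libraries per condition, 1 control library can decide whether MT2A, MT1E or SLC30A1 passes, and few reads limit MT1M and MT1F. MT1M passed in every alternative run. Without a variance trend, MT1G (0.89) and MT1X (0.69) kept their differences but lost their calls, 1 of the 8 genes passed, 4090 genes passed in all, and the further metallothioneins (0), SLC39 importers (4) and MTF1 targets (3) had fewer calls. With total-read scaling 5 of the 8 genes passed, adding MT1E (0.43) and SLC30A1 (0.34), and so did 5 with quantile normalization (0.55 and 0.46). SLC30A1 also passed with TMM scaling and with edgeR (0.27 in both). The median log2 difference of well-expressed genes (mean 20 or more) was -0.02 as deposited, 0.06 with total-read scaling, -0.01 with TMM scaling and -0.03 with quantile normalization. With 1 library left out, the log2 difference of MT1E ranged from 0.14 to 0.54, of MT2A from 0.10 to 0.66, of SLC30A1 from 0.17 to 0.38 and of MT1F from -0.93 to 0.30 (0.08 without the control library of 10126218 reads). The calls ranged from 4319 (without the low-glucose library of 10841656 reads) to 7251 over all genes, 3 to 5 for the 8 genes, 0 to 2 for the further metallothioneins, 0 to 1 for the SLC30 exporters, 3 to 6 for the MTF1 targets and 2 to 5 for copper handling. The difference in share ranged from -1.53 to 0.88 percentage points for MT2A (-0.49 with the deepest library left out), and from -2.28 to 0.0952 for MT1E. With the length of the longest transcript, levels were 41.2 TPM for MT1X and 2607 for MT2A in low glucose, 12.4 and 11.2 for MTF1, and 51.7 and 59.9 for SLC30A1 in control and low glucose. The causes of these changes were not tested.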
